A study of Rattus norvegicus with 8 samples.

Results

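Oxidative phosphorylation subunit genes are the nuclear genes that encode the parts of respiratory chain complexes I to IV and of the ATP synthase, complex V. They were followed in rat hippocampus during exposure to low air pressure. Members were taken by the gene name on the array, those starting with Nduf followed by a, b, c, s or v and a digit, the 4 Sdh genes, names starting with Uqcr or Atp5, and Cox4 to Cox8. They were kept where a probe was well above background on both normoxia arrays. The names matched 102 probes of 84 genes, and 101 probes of 83 genes were kept, out of 21296 genes tested. The gene left out was Cox8c. All 83 were well above background on all 8 arrays, so none passed the filter through a single group. By complex they are 37 genes of complex I, 4 of complex II, 7 of complex III, 14 of complex IV and 16 of complex V, with 5 more that carry such a name but are not subunits (Cox4nb, Cox6c-ps1, Cox7a2l, Atp5s and Atp5sl).

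The 4 groups were male Sprague Dawley rats in normal air (normoxia), and male Sprague Dawley rats kept for 1, 3 or 7 days in a decompression chamber at a simulated 25000 ft, with an effective oxygen content of 8%. Total RNA of the hippocampus was labelled with Cy3 and hybridised to single-colour Agilent arrays, 2 arrays a group. For the last group the title gives day 7 and the exposure field 5 days, and the title is followed here. Whether both arrays of a group came from different animals is not stated in the labels, so the p-values rest on a spread between arrays that may be technical only. No gene was altered in any group, and in whole tissue fewer cells of a type and less RNA per cell cannot be told apart.

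The respiratory chain passes electrons taken from NADH at complex I and from succinate at complex II through ubiquinone, complex III and cytochrome c to oxygen at complex IV. The protons pumped on the way drive the rotary ATP synthase, which makes most of the ATP that neurons spend on ion pumping and synaptic work. Each complex combines core or catalytic subunits, which hold the flavin, iron-sulfur clusters, haems or nucleotide sites, with supernumerary subunits that surround them. Most are encoded in the nucleus, and 13 come from the mitochondrial genome. Nuclear subunit genes are known targets of the transcription factors NRF1, GABP, ERR and YY1, whereas HIF is the oxygen-sensitive factor that binds hypoxia response elements.

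The promoters of 6 members are shown, chosen after their values were seen because the results below turn on them. Ndufa10 and Ndufs7 had the largest day 1 falls in complex I, Ndufb3 and Atp5i stood among the members that were higher on days 3 and 7, Atp5b fell most on day 7, and Cox8b turned direction between days. The sequences are RefSeq windows of 300 bases on build GRCr8, with 250 bases before and 50 after the annotated start, written 5′ to 3′ on the gene's strand. Capitals mark matches to 5 words searched on both strands, which were GCGCA, any 1 base and GCGC in a row for NRF1, CCGGAAGT for GABP, TCAAGGTCA for ERR, AAGATGGC for YY1 and ACGTG for HIF. Ndufa10 lies at chr9:100489215-100489514 on the minus strand, Ndufs7 at chr7:10110449-10110748 on the minus strand and Ndufb3 at chr9:67623167-67623466 on the plus strand. Atp5i (current symbol Atp5me) lies at chr14:1464610-1464909 on the plus strand, Atp5b (Atp5f1b) at chr7:1099808-1100107 on the plus strand and Cox8b at chr1:205408224-205408523 on the minus strand.
Ndufa10: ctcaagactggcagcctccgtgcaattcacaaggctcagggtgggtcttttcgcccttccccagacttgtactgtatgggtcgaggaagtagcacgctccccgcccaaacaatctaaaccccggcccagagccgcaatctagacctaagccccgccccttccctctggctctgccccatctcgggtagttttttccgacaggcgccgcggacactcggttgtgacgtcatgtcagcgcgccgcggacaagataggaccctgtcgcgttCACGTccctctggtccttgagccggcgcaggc
Ndufs7: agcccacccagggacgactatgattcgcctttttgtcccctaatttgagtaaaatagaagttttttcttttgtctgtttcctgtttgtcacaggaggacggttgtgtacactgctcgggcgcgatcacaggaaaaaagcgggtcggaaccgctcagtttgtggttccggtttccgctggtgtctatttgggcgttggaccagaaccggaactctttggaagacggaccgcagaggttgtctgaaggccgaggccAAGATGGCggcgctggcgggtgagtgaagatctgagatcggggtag
Ndufb3: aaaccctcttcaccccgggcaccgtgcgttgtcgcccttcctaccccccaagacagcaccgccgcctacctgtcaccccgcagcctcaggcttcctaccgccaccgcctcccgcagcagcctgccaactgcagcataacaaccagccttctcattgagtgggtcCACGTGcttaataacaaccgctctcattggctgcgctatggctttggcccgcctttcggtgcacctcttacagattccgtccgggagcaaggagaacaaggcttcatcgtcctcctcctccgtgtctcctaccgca
Atp5i: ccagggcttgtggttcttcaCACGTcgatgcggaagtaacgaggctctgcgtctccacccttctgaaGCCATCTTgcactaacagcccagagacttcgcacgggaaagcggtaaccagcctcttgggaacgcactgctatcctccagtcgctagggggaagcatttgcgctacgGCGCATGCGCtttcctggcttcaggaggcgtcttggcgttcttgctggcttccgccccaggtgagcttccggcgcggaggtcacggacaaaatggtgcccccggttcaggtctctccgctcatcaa
Atp5b: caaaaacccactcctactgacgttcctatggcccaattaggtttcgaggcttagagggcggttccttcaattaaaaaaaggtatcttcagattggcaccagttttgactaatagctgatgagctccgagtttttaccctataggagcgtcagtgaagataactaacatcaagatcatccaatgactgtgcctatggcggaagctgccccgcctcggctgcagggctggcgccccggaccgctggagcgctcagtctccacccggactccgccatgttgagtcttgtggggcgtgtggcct
Cox8b: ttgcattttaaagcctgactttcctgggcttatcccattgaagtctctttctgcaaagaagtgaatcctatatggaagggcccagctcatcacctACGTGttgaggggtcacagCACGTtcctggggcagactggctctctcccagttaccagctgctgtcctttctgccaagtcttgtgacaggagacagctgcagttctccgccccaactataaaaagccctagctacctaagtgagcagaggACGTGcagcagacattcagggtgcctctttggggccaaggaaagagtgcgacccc

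In these windows, Ndufa10 held the HIF word once, 19 bases after the start, and Ndufs7 held the YY1 word 5 bases after it. Atp5i held the NRF1 word, the YY1 word and the HIF word once each, Cox8b held the HIF word 3 times, and in Ndufb3 the overlapping capitals are 1 HIF word read on each strand. The Atp5b window held none of the 5 words. The array probes lie, by the coordinates in the array files (build rn4), at chr7:1378451-1378510 for Atp5b, chr1:201057325-201057384 for Cox8b, chr7:10963975-10964034 for Ndufs7 and chr9:57262874-57262933 for Ndufb3. Among the 69 members matched to a window, 14 (20.3%) held the NRF1 word, against 4.67% of the windows of all 27457 gene symbols. The YY1 word was in 15 (21.7%, against 3.41%), the GABP word in 8 (11.6%, against 4.02%), the ERR word in 2 (2.9%, against 0.397%) and the HIF word in 22 (31.9%, against 19.7%). A match is a description of these letters and not a binding site, and the members' windows also had more G and C, with a median of 56.3% against 52.3%. Among the 43 matched members that were lower on day 1, 9 (20.9%) held the NRF1 word, 7 (16.3%) the YY1 word and 13 (30.2%) the HIF word. Of the 25 matched members not called on day 1, 5 (20%) held the NRF1 word, 8 (32%) the YY1 word and 8 (32%) the HIF word. On day 3 the HIF word was in 9 of 22 higher (40.9%) and 2 of 20 lower members (10%), and on day 7 in 16 of 40 higher (40%) and 1 of 16 lower members (6.25%), calls that depend on the scaling as given below. The YY1 word was in 7 (31.8%) of the higher and 3 (15%) of the lower on day 3 and in 10 (25%) and 2 (12.5%) on day 7, and the NRF1 word in 4 (18.2%) and 4 (20%) on day 3 and in 6 (15%) and 4 (25%) on day 7. The GABP word was in 3 (13.6%) of the higher and 1 (5%) of the lower on day 3 and in 7 (17.5%) and 0 on day 7. On day 1 it was in 3 (6.98%) of the lower members and 5 (20%) of those not called. The other 14 members were not matched to a window.

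Levels below are log2 signals minus the array's 75th percentile, and a gene with several probes is read from 1 of them. A difference is called where limma's Benjamini-Hochberg adjusted p over all 21296 genes is below 0.05. Between 72.6% and 85.6% of spots were well above background on an array, with the lower shares on days 3 and 7, and no spot was saturated. All arrays shared 1 slide and 1 scan, with normoxia and day 1 in its first row and days 3 and 7 in its second. Slide row and group therefore cannot be told apart for days 3 and 7 against normoxia or for day 3 against day 1. The shares of all genes to set the marker counts beside are 15.3% higher and 20.2% lower on day 1, and 24.2% and 26.2% on day 3. On day 7 they are 31.5% and 29.7%. Of 8 hippocampal neuron markers, 8 were well above background in normoxia and 7 in each exposed group. Their linear signals summed to 51.8 to 52.9 on day 1, 63.8 to 64.0 on day 3 and 55.5 to 58.4 on day 7, against 52.0 to 53.7 in normoxia, in multiples of the array's 75th percentile, with 3 called higher and 3 lower on day 1, 5 higher and 0 lower on day 3, and 3 higher and 3 lower on day 7. Markers of neighbouring tissue differed between groups. All 8 striatum markers were higher on day 1, with a sum of 30.0 to 30.1 on day 1 against 4.18 to 4.28 in normoxia. All 10 choroid plexus markers were lower on days 1 and 7, with sums of 1.78 to 1.84 on day 1, 161 to 173 on day 3 and 9.81 to 10.6 on day 7, against 120 to 130 in normoxia, and 7 of 10 stayed well above background on both arrays on day 1 and 5 of 10 on day 7. All 6 red blood cell markers were higher on each day. Of 9 general neuron markers, 4 were lower and 1 higher on days 1 and 3, and 6 lower and 2 higher on day 7. Their medians were -0.05, -0.04 and -0.58, while their sums lay between 84.9 and 90.2 on the exposed arrays, against 88.8 to 89.3 in normoxia. The part of these markers in the results below was not tested.

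On day 1 the family was lower than in normoxia. Of the 83 members, 51 were called, against 35.5% of all tested genes, and 49 of them fell and 2 rose, against 20.2% and 15.3% of all genes. The members' median difference was -0.24 log2 units (from -1.47 for Cox8b to 0.28 for Atp5sl), and that of all genes was -0.07. Both day 1 arrays lay below both normoxia arrays for 69 members, as they did for 44.8% of all genes, and above them for 2, against 30.1%. In 74 of the 83, the difference was below the median of the 500 genes closest in level, with a median of -0.22 for member minus like-level genes. The median SD between the 2 arrays of a group was 0.0301 log2 units over the members. Under 5 other ways of scaling the arrays, 38 to 49 members were called lower, 37 of them under every one. Over all genes, 43.1% of day 1 calls were higher, and 57.2% were with a correction for probe GC content. Leaving out the first day 1 array left 32 lower calls and leaving out the second left 31, with 11.4% and 11.7% of all genes lower in those fits, and either left 1 higher call.

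**Figure D1:**
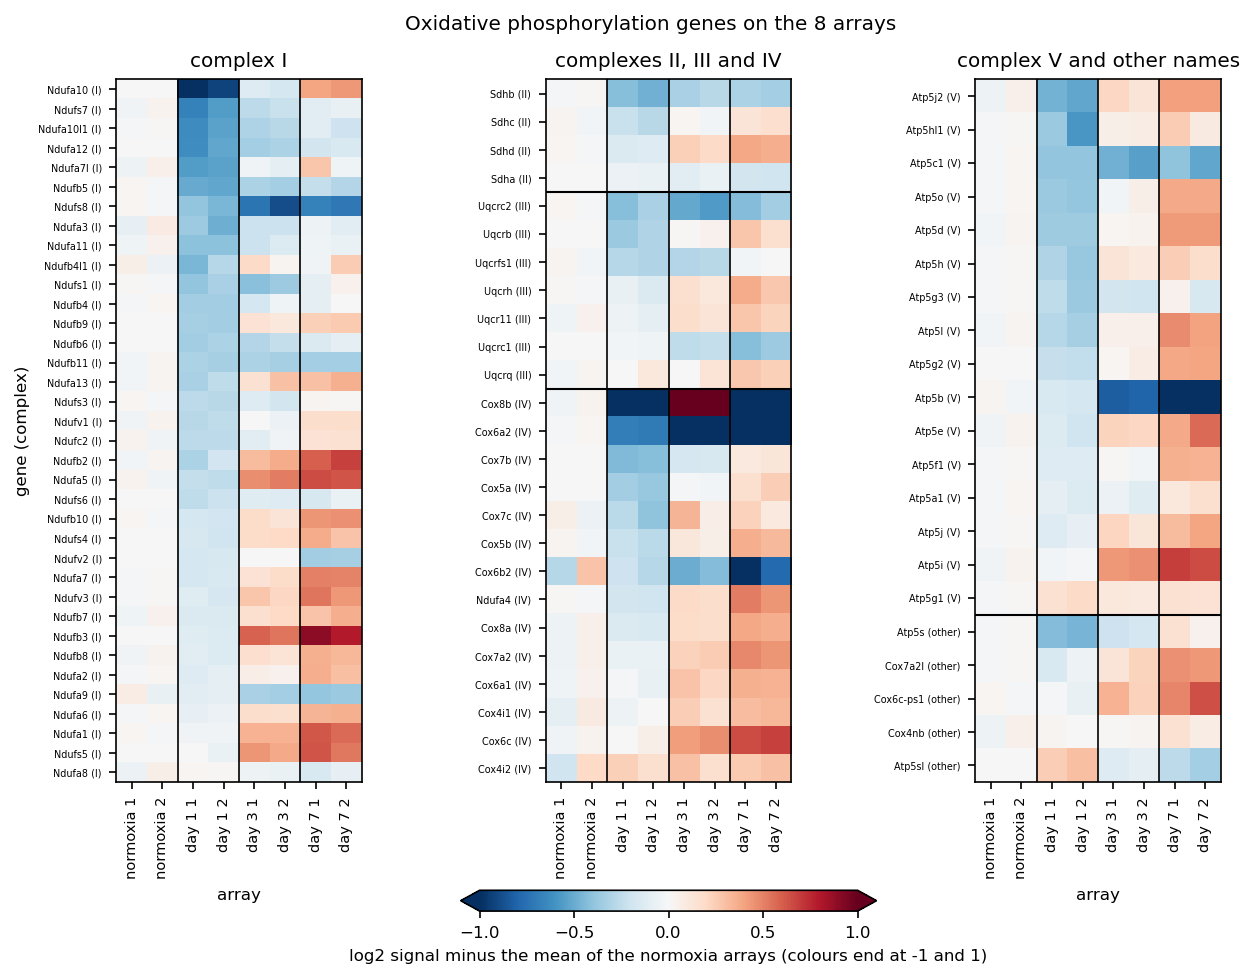
Level of 82 of the 83 members on each of the 8 arrays, as log2 signal minus the gene's mean over the normoxia arrays (colour, ending at -1 and 1), one row a gene within its complex, ordered by the day 1 difference. The day 1 columns are mostly blue, with 49 of the 83 called lower and 2 higher, and the day 7 columns mostly red, with 48 of the 83 called higher and 17 lower, while Atp5b, Cox6a2 and Ndufs8 are blue on days 3 and 7.

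For the counts by complex on day 1 below, the shares of all genes are 20.2% lower and 15.3% higher. Complex I, which oxidises NADH, held 25 of the 49 falls and no rise, with a median of -0.26 over its 37 genes. Of 7 core subunits, 6 fell. Ndufs7, a core subunit that holds the last iron-sulfur cluster before ubiquinone, stood at 2.56 and 2.67 on day 1, against 3.20 and 3.26 in normoxia. Its difference was -0.62 ± 0.0534 (SE, limma adjusted p = 0.00124), with no overlap between the arrays. Ndufs1, the largest subunit of the NADH-oxidising arm, read 2.69 and 2.76 on day 1, against 3.09 and 3.06 in normoxia (-0.36 ± 0.0578, adjusted p = 0.00826). That call was lost without the first day 1 array, with an adjusted p of 0.0524. Ndufv1, which binds NADH and the flavin, had 4.28 and 4.31 on day 1, against 4.52 and 4.59 in normoxia (-0.26, adjusted p = 0.00741, and 0.0505 without the first day 1 array).

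Of the 27 supernumerary subunits of complex I, 17 fell on day 1. The largest difference was that of Ndufa10, a subunit of the membrane arm related to nucleoside kinases. It read 1.77 and 1.86 on day 1, against 2.79 and 2.78 in normoxia. The difference of -0.97 ± 0.0447 log2 units (adjusted p = 0.000197) is a 1.96-fold lower signal, far outside the spread of either pair. Ndufa12, a subunit at the matrix end of the complex, stood at 2.84 and 2.94 on day 1, against 3.46 on both normoxia arrays (-0.57, adjusted p = 0.000999). Ndufb5, of the membrane arm, stood at 3.12 and 3.11 on day 1, against 3.64 and 3.61 in normoxia (-0.51, adjusted p = 0.000813). Both kept their call under all scalings and without any 1 array. The other 10 supernumerary subunits were not called on day 1 and had differences between -0.15 and 0.01.

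Complex II oxidises succinate and belongs to the citric acid cycle as well. Its iron-sulfur subunit Sdhb read 2.85 and 2.79 on day 1, against 3.26 and 3.29 in normoxia, a difference of -0.45 ± 0.0402 (adjusted p = 0.00133). The flavin-bearing catalytic subunit Sdha read 3.69 and 3.67 on day 1, against 3.74 on both normoxia arrays (-0.06, adjusted p = 0.228). The arrays of Sdha did not overlap either, but the gap was not called. Of the membrane anchors, which hold the ubiquinone site, Sdhc fell by 0.25 (adjusted p = 0.0101, lost without the second day 1 or the first normoxia array) and Sdhd by 0.14 (adjusted p = 0.0369), a call that none of the 5 other scalings kept.

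In complex III, which passes electrons from ubiquinol to cytochrome c, 3 of 7 genes fell on day 1. Uqcrfs1, the Rieske iron-sulfur protein, read 3.18 and 3.17 on day 1, against 3.50 and 3.44 in normoxia (-0.29 ± 0.0373, adjusted p = 0.00388). Uqcrc2, one of the core proteins facing the matrix, read 3.16 and 3.27 on day 1, against 3.61 and 3.58 in normoxia (-0.38 ± 0.0553, adjusted p = 0.00612). Its partner Uqcrc1 read 3.19 and 3.18 on day 1, against 3.21 and 3.23 in normoxia, and was not called (-0.03, adjusted p = 0.51). Uqcrb, a small subunit near the ubiquinone site, fell by 0.34 (adjusted p = 0.0073).

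In complex IV, cytochrome c oxidase, 6 of 14 nuclear genes fell on day 1 and none rose. Cox5a, on the matrix side, read 4.17 and 4.14 on day 1, against 4.52 and 4.51 in normoxia (-0.36 ± 0.0427, adjusted p = 0.00319). Cox7b, a small membrane subunit, read 2.79 and 2.80 on day 1, against 3.23 on both normoxia arrays (-0.44 ± 0.0318, adjusted p = 0.000765). Cox5b also fell, by 0.25 (adjusted p = 0.0108, lost without the second day 1 or the first normoxia array, up to 0.0665), and the remaining calls are Ndufa4, now counted with complex IV, and the heart and muscle isoforms Cox6a2 and Cox8b described below. Cox4i1, Cox6a1, Cox6c, Cox7a2 and Cox8a had differences between -0.15 and 0.03 and were not called.

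In complex V, 11 of 16 genes fell on day 1 and 1 rose. Atp5j2, subunit f of the membrane part, read 4.86 and 4.82 on day 1, against 5.28 and 5.39 in normoxia (-0.50 ± 0.0528, adjusted p = 0.00233). Of the F1 head, Atp5c1 (the gamma subunit, the rotor shaft) read 3.04 and 3.03 on day 1, against 3.41 and 3.45 in normoxia (-0.40 ± 0.0518, adjusted p = 0.00425), and Atp5d (delta) fell by 0.36 (adjusted p = 0.00194). Atp5a1 (alpha), which alternates with beta around the shaft, read 6.28 and 6.24 on day 1, against 6.36 and 6.39 in normoxia, and was not called (-0.12, adjusted p = 0.0939). The call of Atp5b (beta, the subunit with the catalytic sites) on day 1 was -0.17 (adjusted p = 0.0254). It was lost under all 5 other scalings and without any 1 of the arrays, the adjusted p without 1 array lying between 0.0516 and 0.122. Subunit c of the rotor ring has 3 genes that encode the same mature protein. Atp5g1 read 4.88 and 4.91 on day 1, against 4.71 and 4.74 in normoxia, and was the subunit gene that rose (0.17, adjusted p = 0.0146). Without either day 1 array or without the first normoxia array that call was lost, with adjusted p up to 0.0866. Atp5g2 fell by 0.24 by the probe used (adjusted p = 0.00578), a call kept under 4 of the 5 other scalings. Its other probe differed by -0.10 and was not called. Atp5g3 fell by 0.31 (adjusted p = 0.0326), a call also lost without any 1 array.

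By day 3 the family had split, and by day 7 more members stood above normoxia than below it on the scale used here. On day 3, 48 members were called (50.3% of all genes), 27 higher and 21 lower (24.2% and 26.2% of all genes), with a median of 0.05 against -0.05 for all genes. On day 7, 65 were called (61.3% of all genes), 48 higher and 17 lower (31.5% and 29.7% of all genes), with a median of 0.21 against -0.03. Both arrays lay above both normoxia arrays for 40 members on day 3 (35.5% of all genes) and 53 on day 7 (39.3%), and below them for 31 (42.2%) and 22 (41.6%). These directions depend on the scaling, since under quantile normalization 7 members were higher and 36 lower on day 3 and 15 higher and 35 lower on day 7, with medians of -0.11 and -0.10. Removing the trend with level gave 7 higher and 38 lower on day 3 and 14 higher and 36 lower on day 7. Centring on the median gave 45 higher and 10 lower on day 3 and 66 higher and 6 lower on day 7. Over all genes, 48.0% of calls were higher on day 3 and 51.5% on day 7, with 66.7% and 73.1% under median centring, which moved the median of all genes to 0.10 and 0.26, and 67.8% and 71.5% under normexp, which moved it to 0.13 and 0.22. Under quantile normalization 51.3% and 54.9% of all genes' calls were higher, against 16.3% and 30% of the members' calls. Without the level trend the shares were 52.3% and 52.8%, against 15.6% and 28%. With median centring 81.8% and 91.7% of the members' calls were higher. The members are bright: 58 of the 83 are in the brightest 10% of genes, where the median difference of all genes was itself 0.18 on day 3 and 0.36 on day 7, against 0.11 and 0.32 for the members there. Set beside the 500 genes closest in level, 63 members were below on day 3 and 57 on day 7, and the median of member minus like-level genes over all 83 was -0.11 on both days. Without either day 3 array or the first normoxia array, a smaller share of members than of all genes was higher on day 3. Without the second normoxia array the share of members was the larger. The members' median difference lay between 0.02 and 0.05 in these fits. Rises and falls on days 3 and 7 are therefore named below only for members called in the same direction under all 5 other scalings, and others are given as values.

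**Figure D2:**
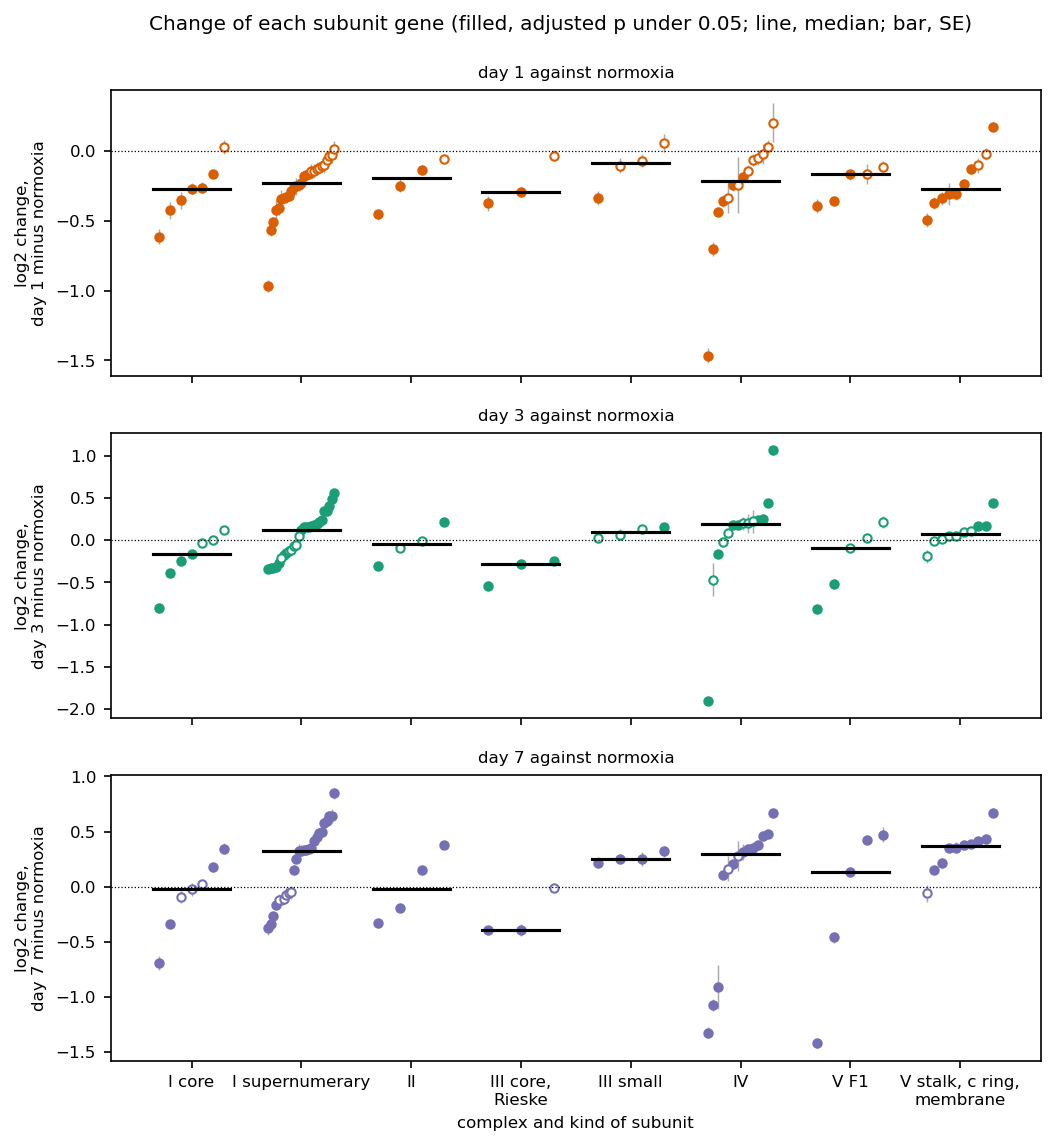
Difference from normoxia (log2, y axis) of each subunit gene on days 1, 3 and 7, by complex and kind of subunit (x axis), ordered by value; points are genes (filled where adjusted p is under 0.05), thin bars are SE and horizontal lines are medians. On day 7 the 10 stalk, c ring and membrane genes of complex V have a median of 0.37 on the main scale, and Atp5b is the lowest point of the F1 genes at -1.42. Of those 10, only Atp5i kept its day 7 call under all 5 other scalings.

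On days 3 and 7 the medians of members with different roles lay apart. Grouped together were 17 core, catalytic and F1 subunits, which are the 7 core genes of complex I, Sdha and Sdhb, Uqcrfs1, Uqcrc1 and Uqcrc2, and the 5 genes of the F1 head. They had a median difference of -0.24 on day 3, with 0 higher and 10 lower, and of -0.09 on day 7, with 5 higher and 8 lower. The other 57 subunits had medians of 0.13 on day 3, with 25 higher and 9 lower, and of 0.32 on day 7, with 41 higher and 8 lower. For these counts and those by complex below, the shares of all genes are 24.2% higher and 26.2% lower on day 3. On day 7 they are 31.5% and 29.7%, and the 5 higher of the 17 are near the first of these. On day 1 the medians were -0.27 for the 17 and -0.23 for the 57. The grouping was made after the values were seen, so it is a description and carries no test. Median centring shifts all genes of an array alike and cannot change the order of the medians, which was also the same under the other 4 scalings: on day 3 the medians of the 17 and the 57 were -0.35 and -0.08 under quantile normalization, -0.37 and -0.08 without the level trend, -0.09 and 0.27 with median centring, -0.07 and 0.17 with the GC correction and -0.27 and 0.09 with normexp. On day 7 they were -0.34 and -0.08, -0.34 and -0.05, 0.20 and 0.62, -0.04 and 0.35, and -0.12 and 0.27 under the same settings in that order. The grouping covers members only, so Cyc1 and the 12 mitochondrially encoded subunits are not in it. On day 7 Cyc1 stood 0.49 above normoxia on the main scale. The 12 had a median of 0.38, with 9 higher and 1 lower, and both results depend on the scaling as given below. The 17 therefore do not stand for all core or catalytic subunits.

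**Figure D3:**
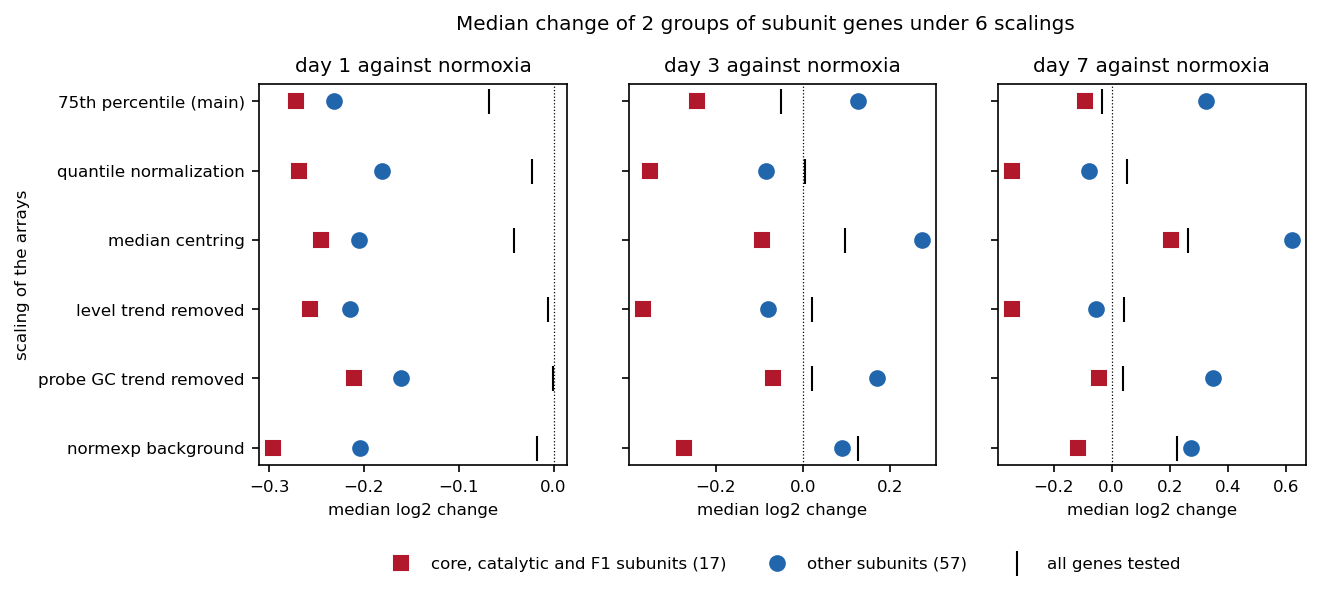
Median difference from normoxia (log2, x axis) of the 17 core, catalytic and F1 subunits (squares), the 57 other subunits (circles) and all genes tested (ticks) on days 1, 3 and 7, for each scaling of the arrays (y axis). The squares lie left of the circles in every panel, at -0.24 and 0.13 on day 3 with the 75th percentile, and the circles cross 0 between scalings on days 3 and 7.

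In complex I the core subunits had 4 lower and none higher on day 3, and 2 lower and 2 higher on day 7, out of 7. The day 7 counts (28.6% each way) are near the shares of all genes. Ndufs8, which carries iron-sulfur clusters on the way to ubiquinone, had 0.39 and 0.35 in normoxia, then -0.03 and -0.09 on day 1, -0.36 and -0.52 on day 3, and by day 7 -0.31 and -0.35. Each exposed group lay below normoxia without overlap, by -0.43 ± 0.0622 on day 1 (adjusted p = 0.00596), -0.81 on day 3 (adjusted p = 0.000534) and -0.69 on day 7 (adjusted p = 0.000432). Ndufs1 stood at 2.66 and 2.71 on day 3 and at 2.99 and 3.12 on day 7. It fell on day 3 (-0.39 ± 0.0578, adjusted p = 0.00376) and was not called on day 7 (-0.02, adjusted p = 0.766). Ndufv2, an iron-sulfur subunit of the NADH-oxidising arm, stood at 4.48 on both normoxia arrays, then 4.31 and 4.32 on day 1, 4.49 and 4.47 on day 3, and by day 7 4.13 and 4.15 (-0.34 ± 0.0311 on day 7, adjusted p = 0.000454, kept under 4 of the 5 other scalings).

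Of the supernumerary complex I subunits, 14 were higher and 7 lower on day 3, and 17 were higher and 5 lower on day 7, on this scale, out of 27. The 7 lower on day 3 (25.9%) are near the share of all genes (26.2%). Ndufb3, a small membrane-arm subunit, had 4.49 on both normoxia arrays, then 4.37 and 4.35 on day 1, 5.07 and 5.02 on day 3, and by day 7 5.38 and 5.28. It rose by 0.56 ± 0.0466 on day 3 (1.47-fold, adjusted p = 0.000647) and by 0.85 on day 7 (1.80-fold, adjusted p = 0.000106), the largest day 7 rise among the members. Ndufa5, a subunit of the matrix arm, had 4.73 and 4.66 in normoxia, then 4.46 and 4.44 on day 1, 5.16 and 5.20 on day 3, and by day 7 5.35 and 5.32. Lower than normoxia on day 1 (-0.25, adjusted p = 0.00895, and 0.0572 without the second day 1 array), it rose by 0.49 ± 0.0410 on day 3 (adjusted p = 0.000667) and by 0.64 on day 7 (adjusted p = 0.000154). Ndufa1, Ndufa2, Ndufa7, Ndufa10 and Ndufb2 also rose on day 7 under all scalings, by 0.33 to 0.64. Ndufa12, Ndufb5 and Ndufb11 fell on day 3, with differences of -0.33 to -0.32. Ndufa9, which sits beside the ubiquinone site, had 2.36 and 2.21 in normoxia, then 2.17 and 2.19 on day 1, 1.96 and 1.94 on day 3, and by day 7 1.90 and 1.92. It overlapped no normoxia array on day 3 or 7, with differences of -0.34 and -0.38. Ndufs5, at the intermembrane side of the membrane arm, had 5.36 and 5.38 in normoxia, then 5.37 and 5.31 on day 1, 5.81 and 5.75 on day 3, and by day 7 6.00 and 5.89, with differences of 0.41 on day 3 and 0.58 on day 7.

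Ndufa10, lowest on day 1, stood at 2.66 and 2.61 on day 3 and at 3.18 and 3.22 on day 7, against 2.79 and 2.78 in normoxia. The day 7 rise of 0.42 was called (adjusted p = 0.000803), as were the steps of 0.82 for day 3 over day 1 (adjusted p = 0.000216) and 0.57 for day 7 over day 3 (adjusted p = 0.00103). The day 3 difference from normoxia of -0.15 (adjusted p = 0.0378) was lost without any 1 array, with adjusted p up to 0.148.

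Sdhb and Uqcrc2 were below normoxia on all 3 days. Sdhb stood at 2.95 and 3.00 on day 3 and at 2.96 and 2.93 on day 7, against 3.26 and 3.29 in normoxia. It fell on day 3 (-0.30, adjusted p = 0.00281), and its day 7 difference of -0.33 (adjusted p = 0.00125) kept its call under 4 of the 5 other scalings. Sdhd stood at 3.77 and 3.71 on day 3 and at 3.91 and 3.89 on day 7, against 3.54 and 3.51 in normoxia. Uqcrc2 stood at 3.08 and 3.03 on day 3 and at 3.16 and 3.24 on day 7, against 3.61 and 3.58 in normoxia. It fell on day 3 (-0.54, adjusted p = 0.0012), and its day 7 difference was -0.39 (adjusted p = 0.00221, kept under 4 of the 5). Uqcrc1, not called on day 1, read 2.97 and 2.98 on day 3 and 2.80 and 2.86 on day 7, against 3.21 and 3.23 in normoxia (-0.39 on day 7, adjusted p = 0.000516, kept under 3 of the 5). Uqcrfs1 was still at 3.18 and 3.20 on day 3 and read 3.44 and 3.48 on day 7, a difference from normoxia of -0.01 on day 7 (adjusted p = 0.816). Some small subunits stood above normoxia on day 7 by the probe used. Uqcrh, the hinge protein, had 5.43 and 5.33 on day 7 against 5.07 and 5.05 in normoxia, a difference of 0.32 that turned to -0.06 without the level trend. Uqcr11 had 5.58 and 5.53 on day 7 against 5.26 and 5.34 in normoxia, a difference of 0.25 that turned to -0.10 under quantile normalization and -0.14 without the level trend. The other 2 probes of Uqcr11 differed by -0.08 and -0.01 on day 7. Uqcrq had -2.74 and -2.76 on day 7 against -3.03 and -2.98 in normoxia (0.25, adjusted p = 0.0198, lost without any 1 array, up to 0.0892).

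In complex IV the widest differences belonged to isoforms known mainly from heart and skeletal muscle. Cox6a2 had -1.57 and -1.53 in normoxia, then -2.24 and -2.26 on day 1, -3.47 and -3.45 on day 3, and by day 7 -2.82 and -2.93. It fell on all days, by 0.70 on day 1 (-0.70 ± 0.0488, adjusted p = 0.000673), 1.91 on day 3 (3.76-fold lower, adjusted p = 4.77e-05) and 1.32 on day 7 (2.5-fold lower, adjusted p = 4.69e-05). Its ubiquitous counterpart Cox6a1 had 6.79 and 6.88 in normoxia, then 6.81 and 6.76 on day 1, 7.12 and 7.04 on day 3, and lastly 7.19 on both day 7 arrays, a day 7 difference of 0.35 that turned to -0.13 under quantile normalization and without the level trend. Cox8b had -1.92 and -1.85 in normoxia, then -3.37 and -3.33 on day 1, -0.87 and -0.77 on day 3, and by day 7 -2.94 and -2.98. It fell 2.76-fold on day 1 (-1.47 ± 0.0522, adjusted p = 9.15e-05), rose 2.1-fold on day 3 (1.07, adjusted p = 0.00019) and fell on day 7 (-1.07, adjusted p = 8.06e-05). The order of the groups for Cox8b is that of the choroid plexus marker sums given above, highest on day 3, then normoxia, day 7 and day 1, and whether those cells carried the signal was not tested. Cox8a, its ubiquitous counterpart, had 5.43 and 5.53 in normoxia, then 5.34 and 5.33 on day 1, 5.66 and 5.65 on day 3, and by day 7 5.87 and 5.84, without the day 3 peak and day 7 fall of Cox8b.

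Cox6c, a small membrane subunit, had 5.56 and 5.62 in normoxia, then 5.59 and 5.65 on day 1, 6.00 and 6.05 on day 3, and by day 7 6.24 and 6.28. The day 1 arrays overlapped normoxia, and the day 7 rise was 0.67 ± 0.0457 (adjusted p = 0.000184). Cox6b2, an isoform known from testis, had 3.00 and 3.57 in normoxia, the widest replicate gap among the members, and 2.25 and 2.51 on day 7. Its day 7 fall of 0.90 (-0.90 ± 0.199, adjusted p = 0.0115) was lost without the first day 7 array, with an adjusted p of 0.0558. Cox4i2, the subunit 4 isoform known to be induced by low oxygen in lung, had 1.20 and 1.60 in normoxia, then 1.64 and 1.56 on day 1, 1.70 and 1.56 on day 3, and by day 7 1.66 and 1.70. It was not called on any day, with differences of 0.20 to 0.28, and the second normoxia array lay among the exposed ones. Ndufa4 had 5.41 and 5.39 in normoxia, then 5.22 and 5.20 on day 1, 5.59 and 5.58 on day 3, and by day 7 5.92 and 5.85. It stood below normoxia on day 1 (-0.19, adjusted p = 0.0165, lost without any 1 array, 0.0582 to 0.0897, and under 2 of the 5 other scalings) and above it on day 7 (0.48, adjusted p = 0.000303), with no overlap. Cox7a2 had 4.54 and 4.64 in normoxia, then 4.52 on both day 1 arrays, 4.82 and 4.84 on day 3, and by day 7 5.07 and 5.03, and Cox7a2l, a supercomplex factor named after it, followed the same order of groups. Cox4i1, the main isoform, had 6.14 and 6.32 in normoxia, then 6.18 and 6.23 on day 1, 6.48 and 6.38 on day 3, and by day 7 6.54 and 6.56. The day 7 difference of 0.32 (adjusted p = 0.0129) turned to -0.13 under quantile normalization and without the level trend.

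Atp5b, the beta subunit of complex V, had 3.53 and 3.47 in normoxia, then 3.34 and 3.32 on day 1, 2.67 and 2.70 on day 3, and by day 7 2.10 and 2.06. The groups stood in steps without overlap, and the fall was 0.81 on day 3 (1.76-fold lower, -0.81 ± 0.0391, adjusted p = 0.000181) and 1.42 on day 7 (2.67-fold lower, adjusted p = 3e-05), the largest day 7 fall among the members. Day 3 was below day 1 (-0.65, adjusted p = 0.000272) and day 7 below day 3 (-0.61, adjusted p = 0.000691). Under the other scalings the day 7 difference ranged between -1.66 and -1.12. Atp5a1, which is present in the head in the same number as beta, stood at 6.32 and 6.25 on day 3 and at 6.48 and 6.53 on day 7. Its day 7 difference was 0.13 (adjusted p = 0.044) and turned to -0.31 under quantile normalization and -0.32 without the level trend. A level of 1 probe cannot be set against that of another, but the difference of Atp5b from normoxia was lower than that of Atp5a1 on days 3 and 7 under each scaling run.

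Atp5c1 was also lower on each day. It stood at 2.95 and 2.89 on day 3 and at 3.03 and 2.92 on day 7, against 3.41 and 3.45 in normoxia (-0.51 on day 3, adjusted p = 0.00114, and -0.46 on day 7, adjusted p = 0.000961). The third F1 gene with a kept call, Atp5d, rose by 0.43 on day 7 (adjusted p = 0.000347), with both arrays at 3.73 against 3.28 and 3.34 in normoxia. The 10 genes of the stalk, c ring and membrane part had a median of 0.08 on day 3, with 3 higher and 0 lower, and of 0.37 on day 7, with 9 higher and 0 lower, on the main scale. Of these rises, only those of Atp5i were kept under all 5 other scalings on either day. The day 7 differences of Atp5g1, Atp5j, Atp5j2 and Atp5o were among those that turned sign under quantile normalization. Atp5o, the subunit that ties the F1 head to the stalk, had 5.43 and 5.47 in normoxia, then 5.08 and 5.07 on day 1, 5.42 and 5.51 on day 3, and lastly 5.83 on both day 7 arrays. Its day 1 fall of 0.38 (adjusted p = 0.00287) was kept under all scalings, and its day 7 difference of 0.38 turned to -0.10 under quantile normalization. Atp5l, subunit g, had 5.38 and 5.43 in normoxia, then 5.12 and 5.07 on day 1, 5.46 and 5.45 on day 3, and by day 7 5.88 and 5.80, a fall of 0.31 on day 1 and a day 7 difference of 0.44. Atp5i, subunit e, which joins synthase dimers, had 6.32 and 6.39 in normoxia, then 6.33 and 6.34 on day 1, 6.79 and 6.81 on day 3, and by day 7 7.05 and 7.01. It was not called on day 1 (-0.02, adjusted p = 0.684) and rose by 0.44 ± 0.0405 on day 3 (adjusted p = 0.000847) and 0.67 on day 7 (adjusted p = 0.000132).

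**Figure D4:**
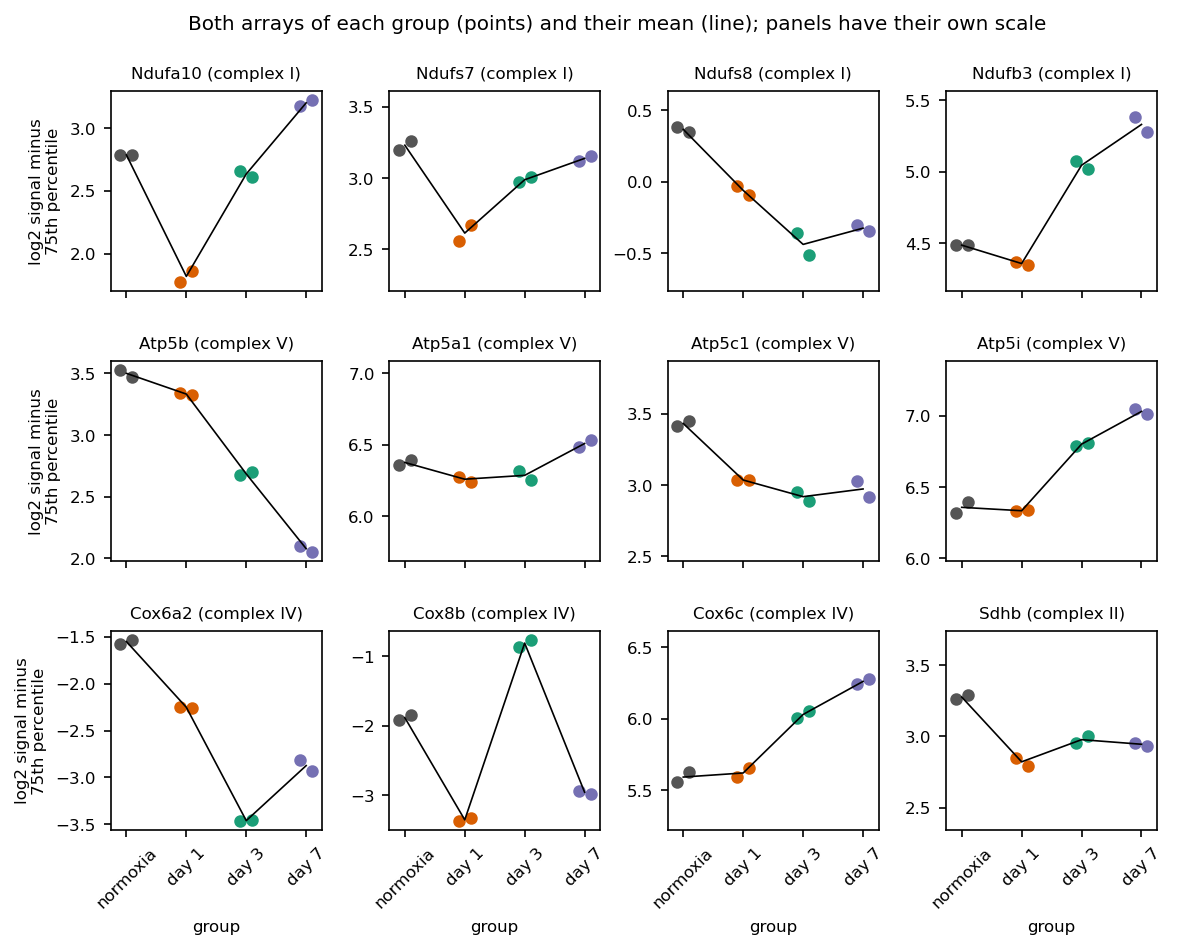
Level on each array (log2 signal minus the array's 75th percentile, y axis, own scale in each panel) of 12 members in normoxia and on days 1, 3 and 7; points are arrays and lines join the group means. Atp5b steps down to 2.10 and 2.06 on day 7, Ndufb3 and Atp5i are highest on day 7, and Cox8b is lowest on day 1 and highest on day 3.

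Between exposed groups, 59 members were higher and 6 lower on day 3 than on day 1, against 28.2% and 23% of all genes (65 called, 51.2% of all genes), with a median of 0.27 against 0.03. Of these, 27 rises and 4 falls (Ndufs8, Cox6a2, Atp5b and Atp5sl) were kept under all 5 other scalings. The kept rises included 15 genes of complex I, with Ndufa10, Ndufs7, Ndufa5 and Ndufb3 among them, and Atp5j2, which stood at 5.55 and 5.47 on day 3 against 4.86 and 4.82 on day 1 (0.67, adjusted p = 0.000541). Day 3 and day 1 lay in different slide rows, so row and group cannot be told apart in this comparison. On day 7, 46 members were higher and 5 lower than on day 3, against 24.2% and 18.3% of all genes (51 called, 42.4% of all genes), with a median of 0.17 against 0.05. Without the second day 3 array the counts were 24 and 3, against 17% and 14.8% of all genes, and without the first they were 30 and 3, against 17.7% and 14.4%. Ndufa10, Ndufs1, Cox6a2, Cox7b and Atp5d were among 10 rises kept under all scalings, and Ndufv2, Cox8b and Atp5b were the kept falls. The choroid plexus markers were all higher on day 3 than on day 1 and all lower on day 7 than on day 3, and their part in these steps was not tested.

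Across the 3 days, 24 of 83 members were lower on day 1 and higher on day 7, a course that 5.95% of all genes had. The share on day 7 carries the dependence on scaling given above. On the same scale 10 members were called lower on every day, against 6.92% of all genes, none was called higher on every day, against 6.25%, and 5 were not called on any day, against 25.5%. Of the 10, Ndufs8, Cox6a2, Atp5b and Atp5c1 kept the day 7 call under all 5 other scalings, and Ndufa12, Ndufb5, Ndufb6, Ndufb11, Sdhb and Uqcrc2 did not. The day 7 calls of Ndufa12 and Ndufb6 were also lost without any 1 array, with adjusted p up to 0.0897 and 0.163. An F-test over the 4 groups called 78 members, against 72.1% of all genes.

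Some members are less certain than their calls. Ndufs4, a subunit that stabilises the NADH-oxidising arm, has 2 probes that were called in opposite directions, at 0.19 and -0.47 on day 3 and at 0.33 and -0.77 on day 7. The probes of Ndufv3 and Uqcr11 differed in sign on days 3 and 7 and those of Uqcrb and Atp5g2 on day 3, without opposite calls. Ndufb4 was called lower on day 1 by the probe used (-0.35), with -0.11 on day 3 and -0.05 on day 7. A brighter Ndufb4 probe lacked a value on the second day 7 array and was not tested. It read 5.42 and 5.53 in normoxia, then 5.46 and 5.47 on day 1. On both day 3 arrays it stood at 5.81, and on the first day 7 array at 6.05. Ndufa10l1, Ndufa7l, Ndufb4l1 and Atp5hl1 were counted as gene copies by their names. Their probes may share signal with Ndufa10, Ndufa7, Ndufb4 and Atp5h, which was not tested. Of the names that are not subunits, Atp5s fell by 0.45 on day 1 (adjusted p = 0.00227) and Atp5sl rose. Atp5sl read -0.96 and -0.90 on day 1, against -1.21 and -1.20 in normoxia (0.28 ± 0.0431, adjusted p = 0.00731).

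The mitochondrial genome encodes the remaining subunits, and 12 of them were named by the probe descriptions and tested. For these and the related lists that follow, the shares of all genes to set the counts beside are 15.3% higher and 20.2% lower on day 1, 24.2% and 26.2% on day 3, and for day 7 31.5% and 29.7%. On day 1, 4 were lower and 0 higher. Mt-nd2, a membrane subunit of complex I, had 4.45 on both normoxia arrays, then 4.07 and 4.12 on day 1, 3.70 and 3.73 on day 3, and by day 7 4.30 and 4.28. It fell on day 1 (-0.35) and on day 3 (-0.73) under all scalings. Mt-nd4l and Mt-atp8 also fell on day 1, by 0.61 and 0.49. On day 3, 4 were higher and 4 lower, near the shares of all genes, with a median of 0.11, and on day 7, 9 were higher and 1 lower, with a median of 0.38. Under quantile normalization these became 1 higher and 7 lower on day 3 (median -0.22) and 1 higher and 4 lower on day 7 (median -0.03). Mt-nd6, the subunit encoded on the opposite mitochondrial strand, had -1.68 and -1.64 in normoxia, then -1.37 and -1.53 on day 1, -0.90 and -0.81 on day 3, and by day 7 -0.64 and -0.63. It rose by 0.80 ± 0.0654 on day 3 (adjusted p = 0.00061) and 1.03 on day 7 (adjusted p = 0.000153), and both rises were kept under all scalings. The labelling was primed with oligo dT, so these signals are those of RNA copied from such primers.

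**Figure D5:**
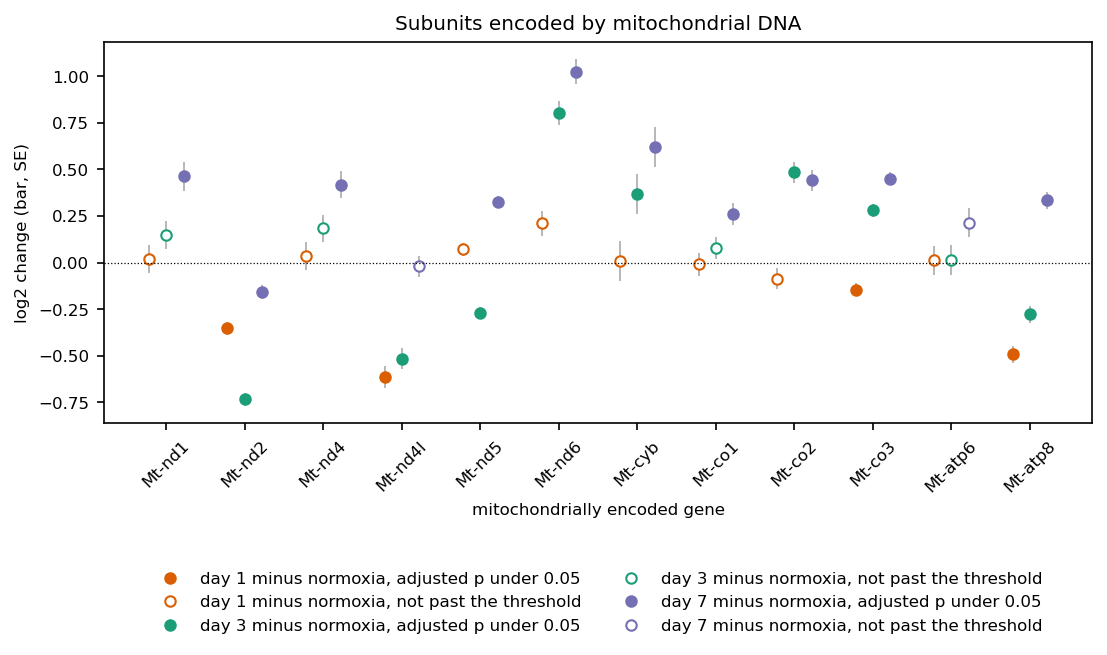
Difference from normoxia (log2, y axis) on days 1, 3 and 7 of 12 mitochondrially encoded subunit genes (x axis); points are filled where adjusted p is under 0.05 and bars are SE (2 arrays a group). Mt-nd2 is lowest on day 3 (-0.73), and Mt-nd6 is highest on day 7 (1.03).

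Of 5 tested subunits and partners that the name rule does not reach, 4 were lower on day 1, 3 were higher and 1 lower on day 3, and 4 were higher on day 7. Ndufab1, the acyl carrier protein that is also part of complex I, read 2.96 and 2.97 on day 1, against 3.40 and 3.39 in normoxia (-0.43, adjusted p = 0.00117). Usmg5, a membrane subunit of the synthase, fell by 0.29. Cycs, the electron carrier cytochrome c, stood at 5.53 and 5.55 on day 7, against 5.01 and 4.89 in normoxia, and Atpif1, the inhibitor of ATP hydrolysis by the synthase, at 5.14 and 5.13, against 4.50 and 4.48. These were rises of 0.59 and 0.64. Cyc1, the haem-bearing cytochrome of complex III, had 5.42 and 5.45 in normoxia, then 5.36 and 5.31 on day 1, 5.68 and 5.58 on day 3, and by day 7 5.88 and 5.96 (0.49 on day 7, kept under 3 of the 5 other scalings).

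Among assembly factors of complex I, 7 of 13 tested were lower on day 1 and none higher, 4 were lower and none higher on day 3, and 6 were higher and 2 lower on day 7. Tmem126b and Acad9, which work together in building the membrane arm, fell by 0.41 and 0.32 on day 1, and Ndufaf3 and Tmem186 rose by 0.45 and 0.51 on day 7. Of 16 complex IV factors, 5 were lower and 1 higher on day 1, 4 lower and 3 higher on day 3, and 3 lower and 8 higher on day 7. Taco1, the translational activator of the Mt-co1 message, fell by 0.48 on day 1, and Cox17, a copper chaperone, rose by 0.48 on day 3 and 0.59 on day 7. Of 4 complex II and III factors, 1 was lower on day 1, 2 were higher and 1 lower on day 3 and 3 higher and 1 lower on day 7. Bcs1l, which inserts the Rieske protein, had -2.76 and -2.88 in normoxia, then -3.05 and -3.08 on day 1, -3.45 and -3.49 on day 3, and by day 7 -3.74 and -3.88, falling by 0.65 on day 3 and 0.99 on day 7. Lyrm7, the chaperone of the same protein, had -2.88 and -2.81 in normoxia, then -2.79 and -2.93 on day 1, -2.33 and -2.29 on day 3, and by day 7 -1.35 and -1.36. It rose by 0.53 on day 3 and 1.49 on day 7, on the other side of normoxia than Bcs1l. Of 3 ATP synthase factors, 1 was lower on day 1 and 2 on days 3 and 7, and Tmem70, needed for the c ring, fell by 0.89 on day 7.

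Of 16 biogenesis regulators, 7 were lower on day 1 and none higher, with 5 higher and 6 lower on day 3, not far from the shares of all genes, and 8 higher and 6 lower on day 7. Ppargc1a, the coactivator that drives mitochondrial biogenesis, had -3.31 and -3.33 in normoxia, then -3.79 and -3.78 on day 1, -3.79 and -3.55 on day 3, and by day 7 -4.08 and -4.03. It fell by 0.47 on day 1 (adjusted p = 0.0104) and 0.74 on day 7 (adjusted p = 0.000897), and its day 3 value lay between without a call that the other scalings kept. The day 1 call of Ppargc1a was kept without 1 of the 4 arrays and lost without each of the others. Ppargc1b fell by 0.39 on day 1, 0.57 on day 3 and 1.12 on day 7. Nrf1 had -2.31 and -2.29 in normoxia, then -2.20 and -2.16 on day 1, -1.68 and -1.79 on day 3, and by day 7 -1.63 and -1.60, and rose by 0.57 on day 3 and 0.69 on day 7. Tfam, which packages and transcribes mitochondrial DNA, rose by 0.39 on day 7, whereas Polg, the catalytic subunit of the mitochondrial DNA polymerase, fell by 0.50 on day 3 and 1.24 on day 7. Gabpa, the DNA-binding subunit of GABP, was 0.22 above normoxia on day 7, and Esrra, the orphan receptor ERR alpha, stood between 2.58 and 2.63 on all exposed arrays against 2.69 and 2.73 in normoxia. Yy1 fell by 0.62 on day 7.

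Genes known to adjust respiration in low oxygen had 5 of 9 higher and 1 lower on day 1, 4 higher and 2 lower on day 3, and 3 higher and 4 lower on day 7, with medians of 0.22, 0.23 and -0.20. Bnip3, a mitophagy receptor, had 4.85 on both day 1 arrays, against 4.21 and 4.30 in normoxia, and rose on every day (0.60 ± 0.0504 on day 1, adjusted p = 0.00116, then 0.48 and 0.59). Pdk1, the kinase that shuts pyruvate dehydrogenase, had -1.76 and -1.77 on day 1, against -2.08 and -2.15 in normoxia (0.35, adjusted p = 0.00278). It read -2.42 and -2.37 on day 3 and -2.43 and -2.45 on day 7, below normoxia. Higd1a, a small protein bound to complex IV, stood at -0.39 and -0.33 on day 1, -1.30 and -1.27 on day 3, and by day 7 at -1.83 and -1.60, against -0.74 and -0.75 in normoxia. Its day 1 rise of 0.39 (adjusted p = 0.0164) was lost without any 1 array, with adjusted p up to 0.0861, whereas it fell by 0.54 on day 3 and 0.97 on day 7. Higd2a took the opposite course, falling by 0.30 on day 1 and rising by 0.36 on day 3 and 0.49 on day 7. Lonp1, the protease that degrades Cox4i1, stood 0.18 above normoxia on day 1 (adjusted p = 0.0189, up to 0.103 without 1 array) and fell by 0.53 on day 7.

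In the citric acid cycle, 4 of 13 genes were lower and 1 higher on day 1, 8 lower and 3 higher on day 3, and 5 lower and 4 higher on day 7, the last near the shares of all genes. Ogdh, of the 2-oxoglutarate dehydrogenase complex, had 1.93 and 2.36 in normoxia, then 2.24 and 2.11 on day 1, 1.35 and 1.28 on day 3, and by day 7 0.63 and 0.50. It fell by 0.83 on day 3 and 1.58 on day 7. Mdh2, the mitochondrial malate dehydrogenase, fell by 0.55 on day 3 and 0.63 on day 7. Fh and Dld fell by 0.32 each on day 1. Idh2, the NADP-dependent isocitrate dehydrogenase, was higher on every day, by 0.29, 0.35 and 0.42, of which the day 3 rise was kept under all scalings.

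Of 12 ubiquinone synthesis genes, 5 were lower and 1 higher on day 1, 4 lower and 1 higher on day 3, and 4 lower and 4 higher on day 7, the last near the shares of all genes. Coq6, a ring hydroxylase, fell by 0.32 on day 1 and 0.35 on day 3, Coq4 fell by 0.62 on day 3 and 0.82 on day 7, and Coq3, a methyltransferase, rose by 0.31 on day 3 and 0.48 on day 7. Of 6 nucleotide and phosphate carriers, 1 was higher on day 1 and none lower, and on day 7 5 were higher and 1 lower. Vdac1, the main outer membrane channel, rose by 0.34 on day 1 and 0.62 on day 7. Slc25a5, an ADP/ATP carrier, stood at 4.13 on both day 3 arrays and at 4.12 and 3.97 on day 7, against 4.43 and 4.57 in normoxia.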

How the data were processed

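Hippocampal RNA of 4 groups (2 arrays each) was measured on single-colour Agilent arrays. The deposited intensity values are Feature Extraction signals (version 11.5.1.1, per the file headers), which the authors' scanner software had subtracted for background and detrended but not scaled between arrays. The authors' deposited log2 values match the scanner's log2 signal minus a constant close to each array's 75th percentile, within 0.05 for at least 96.7% of probes on each array. They are not centred by gene, and they served as an alternative. Spots flagged as outliers were left out and spots of a probe averaged. The main setting was the log2 signal minus each array's 75th percentile. Of 30367 probes, 30346 had a value on every array, and 24678 were kept as well above background on both arrays of a group (at least 0.5 of a probe's spots), giving 21296 genes by the probe with the highest mean.

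limma 3.58.1 in R 4.3.3 (with data.table, version 1.17.8) was fitted to all 4 groups without covariates (4 residual degrees of freedom, prior 1.22, median residual SD 0.0745 log2 units), with 5 comparisons, each adjusted by Benjamini-Hochberg across the tested genes at a threshold of 0.05. Tables and figures used Python 3.11.15, pandas 2.3.3, numpy 2.4.6 and matplotlib 3.10.9. The fit was tested on simulated data. The number of arrays limits the precision.

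The members and gene lists were chosen with earlier results of these data known, and the role grouping and the promoters shown were chosen after values were seen. Named were, per complex and comparison with normoxia, up to 4 of the largest rises and falls with both arrays on 1 side. All complex II genes, set core subunits, isoform pairs and regulators, and up to 4 genes with the smallest p per other list, were named too. Cox5b, Ndufa2, Ndufa7, Ndufb4, Ndufb6, Ndufs4, Atp5s, Atp5sl and the gene copies were named after their values were seen. The values of 1 member are not reported here, though the counts include it. Alternatives were quantile normalization, median centring, removal of the trend with level or with probe GC content, normexp with an offset of 50, the deposited values, no filter on dim probes or a filter on all 8 arrays, every probe on its own, an intensity trend in the prior, 200 or 1000 genes of like level, the 2 compared groups alone, the mean of a gene's probes, a 1.5-fold threshold, a replicate block, each array left out and, added after seeing the data, leaving out day 1. The replicate numbers carry no shared animal or day in the labels, and deviations of same-numbered arrays correlated at -0.149 to 0.0466. Array gene names were matched to current RefSeq symbols for 82 of 83 members, of which 18 differ, and 0 columns were left unmapped.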

Additional observations from a re-analysis of the deposited data

Results flagged for a closer look

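Some members stood on opposite sides of normoxia on 2 of the days compared, and the test of the difference between those days passed the threshold as well (limma, adjusted p below 0.05). From day 1 below normoxia and day 3 above it, Cox8b differed most, by 2.53 log2 units for day 3 against day 1. Ndufa5 differed by 0.73, Atp5j2 by 0.67, Ndufb2 by 0.60, Ndufa4 by 0.37 and Sdhd by 0.35 in the same comparison. Day 3 and day 1 also lay in different slide rows, which cannot be told apart from the groups. Against normoxia, the day 1 calls of Ndufa4 and Sdhd were lost without any 1 array, with adjusted p up to 0.0897 and 0.157, and the day 1 calls of Ndufa5 and Ndufb2 and the day 3 calls of Atp5j2 and Ndufa4 were lost without at least 1 array. The day 3 rise of Ndufa5 and of Cox8b over normoxia was kept under every scaling run, whereas the day 3 difference of Atp5j2 and Ndufa4 from normoxia turned sign under quantile normalization and without the level trend. For day 7 against day 3, Cox8b differed by -2.14 log2 units, above normoxia on day 3 and below it on day 7. In the same comparison Ndufa10 differed by 0.57 and Cox7b by 0.27, both below normoxia on day 3 and above it on day 7. The day 3 call of Ndufa10 and the day 7 call of Cox7b against normoxia were each lost without any 1 array, with adjusted p up to 0.148 and 0.0997, so those opposite sides do not rest on stable calls. The day 7 difference of Cox7b from normoxia turned sign under quantile normalization and without the level trend. The choroid plexus marker sums, which follow the order of Cox8b over the groups, were 1.78 to 1.84 on day 1, 161 to 173 on day 3 and 9.81 to 10.6 on day 7, against 120 to 130 in normoxia, and their part in it was not tested.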

How the results depend on the processing

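Under quantile normalization the median was -0.21 on day 1, -0.11 with 7 higher and 36 lower on day 3, -0.10 with 15 higher and 35 lower on day 7, 0.10 with 27 higher and 12 lower for day 3 against day 1, and 0.031 with 13 higher for day 7 against day 3. Without the level trend it was -0.12 with 7 higher and 38 lower on day 3, -0.10 with 14 higher and 36 lower on day 7, 0.089 with 31 higher and 15 lower for day 3 against day 1, and 0.032 with 15 higher and 9 lower for day 7 against day 3. Median centring gave 0.20 with 45 higher and 10 lower on day 3, 0.51 with 6 lower on day 7, 0.39 for day 3 against day 1, and 0.31 with 3 lower for day 7 against day 3. The GC correction gave medians of -0.17 on day 1 and 0.10 on day 3. With normexp 1 member was higher on day 1, 16 on day 3 and 30 on day 7 against day 3. Fitting the compared groups alone gave 1 higher on day 1, 15 higher on day 3, and 17 higher and 3 lower for day 7 against day 3, with fewer arrays in each fit. The mean of a gene's probes gave medians of 0.18 on day 7 and 0.24 for day 3 against day 1. A threshold of 1.5-fold left 0 higher and 4 lower on day 1, 1 and 3 on day 3, 6 and 5 on day 7, 6 and 2 for day 3 against day 1, and 1 and 2 for day 7 against day 3. Leaving out 1 array gave 1 to 3 higher, 31 to 36 lower and a median of -0.24 to -0.22 on day 1. On day 3 it gave 12 to 21, 17 to 20 and 0.02 to 0.05, and on day 7 it gave 41 to 43, 15 to 16 and 0.20 to 0.26. For day 3 against day 1 it gave 44 to 51, 5 and 0.27, and for day 7 against day 3 24 to 33, 3 to 4 and 0.17 to 0.19. A replicate block, which pairs arrays by number, gave 2 higher and 48 lower on day 1, 26 and 20 on day 3, 46 and 16 on day 7, 57 and 6 for day 3 against day 1, and 40 and 5 for day 7 against day 3, and moved no count by more than 1.5 times. Without the day 1 arrays, a choice made after seeing the data, 20 members were higher and 20 lower on day 3. Shares of all genes are not given for this fit, the compared groups alone, the 1.5-fold threshold or the replicate block. Their counts are therefore not set against all genes. Of all values of named genes under other settings, 4116 were counted as unchanged and 439 kept the direction but missed the threshold. A further 143 passed it only there, and 54 turned sign. The 54, listed below, were all called in the main setting. Values not called there also turned sign under other scalings and are not listed, such as Cox4i1 (0.20, down to -0.0854) and Atp5g2 (0.05, down to -0.17) on day 3. Under quantile normalization, day 3 against normoxia, the sign turned for Atp5j (-0.0414), Atp5j2 (-0.0539), Cox6a1 (-0.096), Cox8a (-0.084), Ndufa4 (-0.0578) and Uqcr11 (-0.0582). Under quantile normalization, day 7 against normoxia, the sign turned for Atp5a1 (-0.3066), Atp5g1 (-0.2109), Atp5j (-0.0137), Atp5j2 (-0.0042), Atp5o (-0.0992), Cox4i1 (-0.1281), Cox5a (-0.1304), Cox6a1 (-0.1349), Cox7b (-0.1412), Cox8a (-0.0869), Ndufv1 (-0.167), Sdhc (-0.0905), Uqcr11 (-0.1027), Uqcrb (-0.1178) and Uqcrh (-0.0046). Under quantile normalization, day 3 against day 1, the sign turned for Cox4i1 (-0.0309), Ndufv2 (-0.0118), Uqcr11 (-0.0063) and Uqcrh (-0.0273). Under quantile normalization, day 7 against day 3, the sign turned for Cox8a (-0.0029). Without the level trend, day 3 against normoxia, the sign turned for Atp5j (-0.0325), Atp5j2 (-0.0617), Cox6a1 (-0.0632), Cox7a2l (-0.0428), Cox8a (-0.0634), Ndufa4 (-0.0567) and Uqcr11 (-0.0797). Without the level trend, day 7 against normoxia, the sign turned for Atp5a1 (-0.3172), Atp5g1 (-0.2071), Atp5o (-0.0193), Cox4i1 (-0.1306), Cox5a (-0.1351), Cox6a1 (-0.1344), Cox7b (-0.1458), Cox8a (-0.0257), Ndufv1 (-0.1636), Sdhc (-0.096), Uqcr11 (-0.1419), Uqcrb (-0.147) and Uqcrh (-0.0567). Without the level trend, day 3 against day 1, the sign turned for Cox4i1 (-0.0407), Ndufv2 (-0.0286) and Uqcr11 (-0.0042). With median centring, day 7 against normoxia, the sign turned for Ndufa12 (0.1276), Ndufb5 (0.0291) and Sdha (0.1037). With median centring, day 7 against day 3, the sign turned for Uqcrc1 (0.0018). With the GC correction, day 7 against normoxia, the sign turned for Sdhc (-0.1024). Apart from fewer arrays or genes in a fit, the cause of these shifts was not tested. Precision is limited by 2 arrays a group, by 1 slide whose rows follow the groups, and by signals whose scale across the brightness range differed between arrays.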

Other observations

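Endothelial markers, which report on blood vessels and belong to none of the comparisons above, were mostly higher in each exposed group than in normoxia. Of 7 such markers, 5 were called higher on each day and 1 was called lower on days 3 and 7, and their signals summed to 31.1 to 31.5 on day 1, 27.5 to 28.8 on day 3 and 21.7 to 22.0 on day 7, against 9.78 to 10.2 in normoxia, in multiples of the array's 75th percentile. The 7 astrocyte markers summed to 114 to 117 on day 1, 121 to 122 on day 3 and 145 to 148 on day 7, against 111 to 116 in normoxia, with 2 higher and 3 lower on day 1, 3 higher and 3 lower on day 3, and 5 higher and 2 lower on day 7. Of 6 microglia markers, 3 were higher and 0 lower on day 1, 0 higher and 3 lower on day 3, and 1 higher and 4 lower on day 7, with a day 7 median of -0.72, while their sums stayed between 11.8 and 13.2 on the exposed arrays, against 12.4 to 12.7 in normoxia. Red blood cell markers summed to 290 to 299 on day 1, 444 to 471 on day 3 and 550 to 563 on day 7, against 164 to 180 in normoxia. Beside these marker counts, 15.3% of all genes were higher and 20.2% lower on day 1, and 24.2% and 26.2% on day 3. On day 7 the shares were 31.5% and 29.7%.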
